A study of Mus musculus with 15 samples.

Results

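The E15.5 cortex of mouse foetuses lacking Phf6 was compared with that of littermate controls. The members were all cortex libraries of the series, chosen by their labels: 5 Phf6-/Y and 3 Phf6+/Y libraries, 8 of the 15 libraries deposited. The Phf6-/Y foetuses were C57BL/6 males carrying a germline deletion of exons 4 and 5 of Phf6, made with a Cre-deleter strain, so every cell of the animal carried the deletion. The controls were C57BL/6 males with an intact Phf6 gene. The remaining 7 libraries, used here only for comparison, were neurons from the E16.5 cortex kept in culture for 24 h, with Phf6 deleted by the nestin-Cre transgene, which acts in neural progenitors and their progeny (4 Phf6lox/Y;Nes-creTg/+), or left intact (3 Phf6+/Y;Nes-creTg/+). The cortices came from 3 litters. Litter 1 gave Phf6+/Y library 3 and Phf6-/Y libraries 4 and 5, litter 2 gave Phf6+/Y library 2 and Phf6-/Y libraries 2 and 3, and litter 3 gave Phf6+/Y library 1 and Phf6-/Y library 1. RNA was taken from the dissected cortex, which holds progenitors, neurons, endothelial cells and other cell types, and a lower level of a transcript in such a sample may reflect fewer cells of a type or less RNA per cell, which cannot be told apart.

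PHF6 is an X-linked nuclear and nucleolar protein with PHD-type zinc fingers, and germline mutations in it cause Börjeson-Forssman-Lehmann syndrome, a disorder with intellectual disability. It has been found together with the NuRD chromatin remodelling complex, the PAF1 transcription elongation complex and the RNA polymerase I machinery. In the foetal cortex, radial glia divide at the ventricle, intermediate progenitors and young pyramidal neurons arise from them, and Cajal-Retzius neurons enter the surface from the cortical hem, the septum and the border of the pallium. The question put to the data was which genes differed in level in the developing cortex when Phf6 was absent.

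Total counts were 24194002 to 31157700 in Phf6+/Y and 22790294 to 28372853 in Phf6-/Y libraries. Levels are given below as CPM, the counts of a gene relative to the TMM-scaled library size. Log2 fold changes are Phf6-/Y over Phf6+/Y, given ± their standard errors, and were fitted and tested by the quasi-likelihood method of edgeR in a model of litter and genotype. FDR is the Benjamini-Hochberg adjusted p over all 14750 genes tested. The label of cortex was borne out by abundant pyramidal lineage transcripts, whose 12 markers summed to 3302 to 3672 CPM in 7 libraries. Phf6-/Y library 1 stood apart, with 2219 CPM for this sum. In the same library 14 diencephalic and hindbrain markers summed to 586 CPM, against 52.5 to 95.8 CPM in the Phf6+/Y and 61.8 to 87.6 CPM in the other Phf6-/Y libraries. Tcf7l2, a transcription factor of the thalamus, was at 282 CPM in that library and at 7.92 to 19.1 CPM in the controls. Values without it are given below for the genes that stood far apart in it, and as a range for the other genes that were called only with it. When it was left out, its control was alone in litter 3, and the estimate rested on litters 1 and 2. Sums of choroid plexus markers (20.5 to 550 CPM) and of meningeal markers (38.9 to 686 CPM) also varied between libraries, in both genotypes. In the heat map of marker sums, the choroid plexus and meningeal rows differ between libraries of the same litter and genotype, and the diencephalic row is high in Phf6-/Y library 1 alone.

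**Figure D1:**
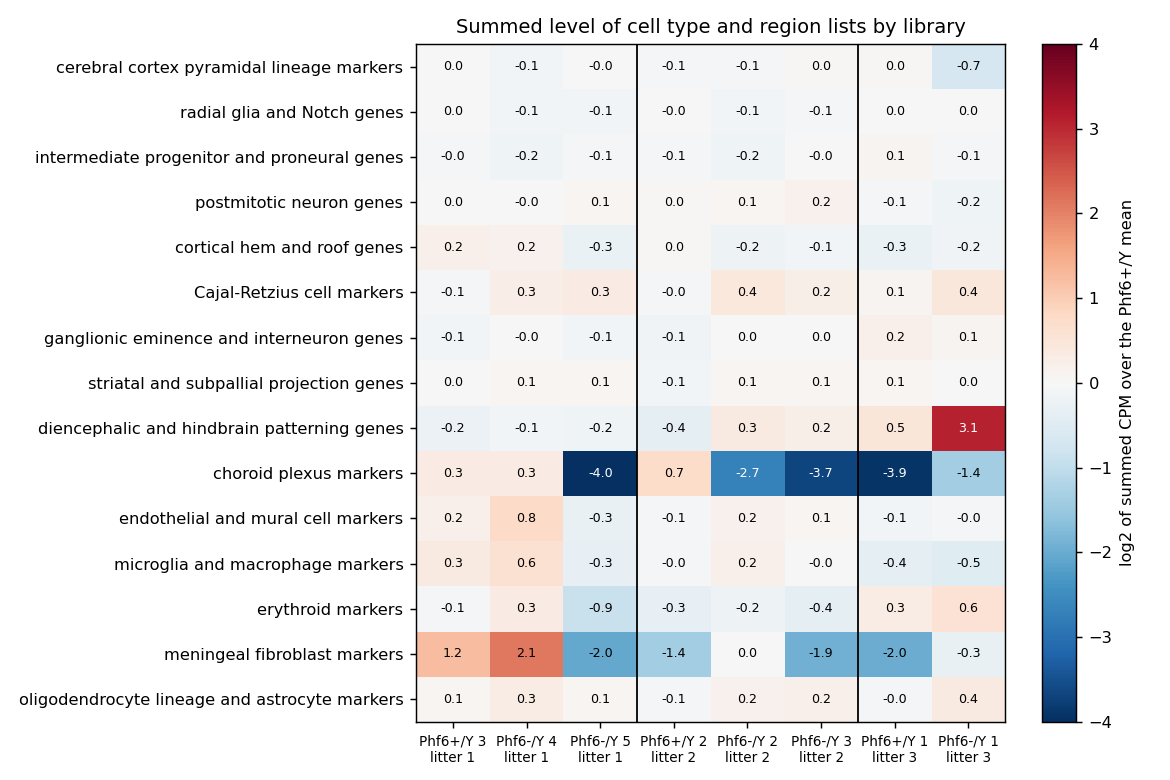
Summed level of 15 lists of cell type markers (rows) in the 8 cortex libraries (columns, ordered by litter, with lines between litters), with colour and number giving the log2 ratio to the mean of the 3 Phf6+/Y libraries. Phf6-/Y library 1 shows the high diencephalic sum (586 CPM) and low pyramidal sum (2219 CPM), and Phf6-/Y library 4 the high choroid plexus (415 CPM) and meningeal (686 CPM) sums relative to the other Phf6-/Y libraries.

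Reads over the whole Phf6 gene were examined first as a check of the labels. Phf6 measured 186, 158 and 199.8 CPM in the 3 Phf6+/Y libraries and 44.7, 55.1, 49.1, 44.7 and 57.8 CPM in the 5 Phf6-/Y libraries. All 5 Phf6-/Y libraries lay below every Phf6+/Y library (log2 fold change -1.86 ± 0.10, FDR = 1.046e-05). The counts do not separate the deleted exons from those that remained, so the residual 50.3 ± 5.98 CPM (SD, n = 5) is not a level of functional transcript.

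At FDR < 0.05, 47 genes were upregulated and 10, Phf6 among them, were downregulated in the Phf6-/Y cortex, which is 0.319% and 0.0678% of the genes tested. At an unadjusted p below 0.05 there were 839 upregulated (5.69%) and 703 downregulated genes (4.77%). The changes were small, with a median log2 fold change of 0.63 in the 47 upregulated genes and -0.65 in the 10 downregulated genes, and only 4 upregulated and 3 downregulated genes exceeded a 2-fold difference. All 47 upregulated genes were higher in Phf6-/Y in each of the 3 litters and all 10 downregulated genes were lower in each of them. Over all tested genes 2227 (15.1%) were higher and 2551 (17.3%) lower in every litter. For 22 of the upregulated and 8 of the downregulated genes the 2 genotypes did not overlap, whereas 345 tested genes (2.34%) had every Phf6-/Y above every Phf6+/Y library and 432 (2.93%) every one below. The called genes were chosen by the genotype effect within litters, so nothing is read from their higher shares. Just inside the threshold were Csrnp3 (FDR = 0.0470), Nefl and Dbi (both 0.0498), and just outside were Cacna2d2 (0.0505), Robo3 (0.0509) and Vsnl1 (0.0586). In the plot of fold change against level, the upregulated genes lie between 1.09 and 8.41 and the downregulated genes between 2.21 and 8.94 log2 CPM, within a range of -1.84 to 11.88 for all tested genes.

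**Figure D2:**
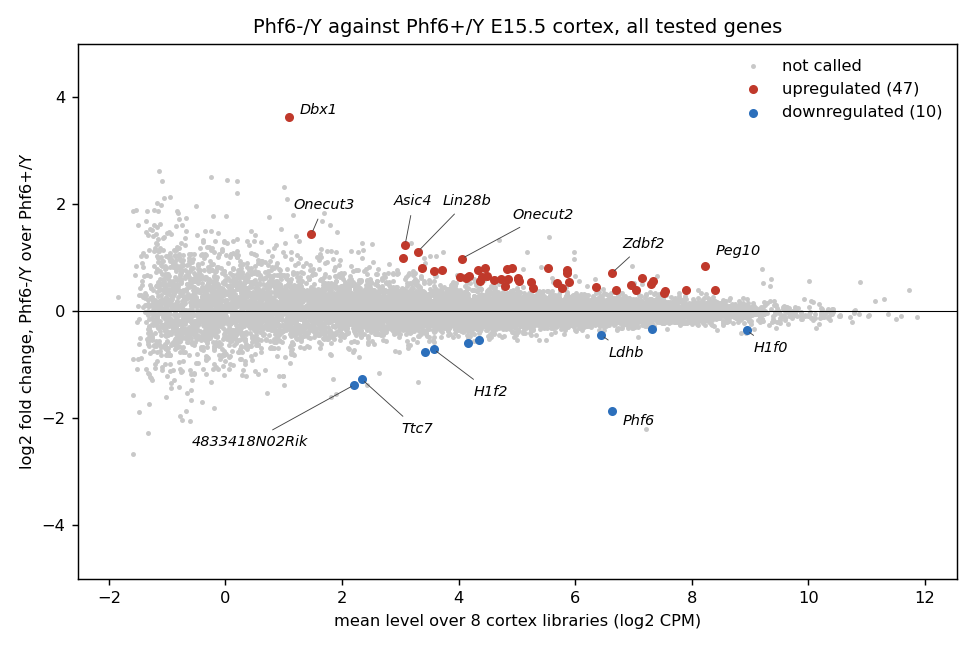
Fold change (log2, Phf6-/Y over Phf6+/Y) against mean level (log2 CPM over the 8 cortex libraries) for each tested gene. Upregulated genes are red, downregulated genes blue and genes that did not pass FDR < 0.05 grey. Dbx1 (3.63) and Onecut3 (1.44) are the highest of the upregulated genes and Phf6 (-1.86) is the lowest of the downregulated genes.

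The number of calls depended on the libraries used. Without Phf6-/Y library 1, 15 genes were upregulated (0.102% of 14742) and 2 downregulated (0.0136%). The 11 of the genes described here, other than Phf6, that remained called were Peg10, Zdbf2, Zic4, AW551984, Asb4, Lhx8, Ecel1, Dnm3, Slc12a5 and Gng4, all upregulated, and Ldhb, which was downregulated. The remaining 44 lost the call, with FDRs of 0.0550 to 0.296, and none of them changed direction. Peg10, Zdbf2, Zic4 and AW551984 were called whichever single library was left out. With litter left out of the model only Phf6 was called.

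Imprinted genes, which are expressed mainly from the maternal or the paternal copy, supplied 5 of the 47 upregulated genes and none of the downregulated ones. For Peg10, the levels were 303, 155 and 178 CPM in Phf6+/Y and 548, 314, 329, 297 and 264 CPM in Phf6-/Y. Peg10, a paternally expressed gene derived from a retrotransposon and required in the placenta, was higher in Phf6-/Y in every litter, but the Phf6+/Y library of litter 3 lay within the Phf6-/Y range (log2 fold change 0.85 ± 0.081, FDR = 0.000527). Its level without Phf6-/Y library 1 was still higher (log2 fold change 0.86, FDR = 0.00164). Asb4 was at 31.4, 18.2 and 16.01 CPM in Phf6+/Y libraries 1 to 3 and at 45.6, 33.3, 35.3, 32.4 and 27.6 CPM in Phf6-/Y libraries 1 to 5. Asb4, a maternally expressed gene near Peg10 on chromosome 6, was also higher in Phf6-/Y in every litter, with the control of litter 3 above the lowest Phf6-/Y library (log2 fold change 0.80 ± 0.11, FDR = 0.00604). Zdbf2 measured 81.5, 67.4 and 67.7 CPM in the 3 Phf6+/Y libraries and 164, 105, 108, 101 and 96.01 CPM in the 5 Phf6-/Y libraries. In Zdbf2, a paternally expressed zinc finger gene, all Phf6-/Y libraries exceeded all controls (log2 fold change 0.72 ± 0.083, FDR = 0.00219), and it was still called without Phf6-/Y library 1 (log2 fold change 0.61, FDR = 0.00398).

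For Peg3, the levels were 151, 118 and 114 CPM in Phf6+/Y and 254, 158, 159, 189 and 147 CPM in Phf6-/Y. Peg3, a paternally expressed zinc finger gene, rose as well, with 1 Phf6-/Y library below the control of litter 3 (log2 fold change 0.56 ± 0.088, FDR = 0.0227). Nap1l5 was at 33.8, 29.1 and 26.6 CPM in Phf6+/Y libraries 1 to 3 and at 51.8, 48.3, 44.4, 33.2 and 36.8 CPM in Phf6-/Y libraries 1 to 5. This nucleosome assembly protein-like gene lies inside Herc3, and its highest control just exceeded Phf6-/Y library 4 (log2 fold change 0.55 ± 0.090, FDR = 0.0227). Of 50 imprinted genes tested of 53 listed, 18 were higher and 1 lower at an unadjusted p below 0.05, 38 had a positive fold change, and the median log2 fold change was 0.173, compared with -0.002 for all tested genes. Of all tested genes 5.69% were higher and 4.77% lower at that p, and 49.4% had a positive fold change. Calcr (1.62, FDR = 0.0596), Rtl1 (1.54, FDR = 0.0900) and Magel2 (0.63, FDR = 0.139) did not pass the threshold.

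No other gene tested close to the called imprinted genes passed the threshold. Within 500 kb of Peg10 (chromosome 6 of GRCm38, 4747306 to 4760517) 6 genes were tested and Peg10 alone was called, while Casd1, which is close to it, had a log2 fold change of 0.22 (unadjusted p = 0.018, FDR = 0.345). The count was 1 of 6 around Asb4, 1 of 9 around Zdbf2, 1 of 6 around Nap1l5 and 1 of 13 around Peg3, where Usp29, which is paternally expressed in the same domain, had a log2 fold change of 0.19 (FDR = 0.426).

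Patterning and lineage regulators, mostly transcription factors, formed the largest hand-made grouping of called genes, assembled after their values were seen, with 13 genes that were all upregulated (log2 fold changes 0.39 to 3.63). The Zic genes encode zinc finger transcription factors of the dorsal and medial forebrain, the meninges and Cajal-Retzius neurons. Zic4 measured 59.5, 38.0 and 32.7 CPM in the 3 Phf6+/Y libraries and 89.5, 66.3, 66.5, 56.4 and 54.0 CPM in the 5 Phf6-/Y libraries. For Zic1, the levels were 162, 87.4 and 90.7 CPM in Phf6+/Y and 235, 128, 164, 149.7 and 120.0 CPM in Phf6-/Y. Both genes were higher in Phf6-/Y in each litter, and in both the control of litter 3 lay within the Phf6-/Y range (Zic4 0.73 ± 0.075, FDR = 0.00072, Zic1 0.62 ± 0.099, FDR = 0.0271). Zic1 (91358058 to 91365768) and Zic4 (91365631 to 91389351) are neighbours on chromosome 9 whose annotated transcripts overlap, so some reads may not be assigned to one of them with certainty. They were the only genes tested within 500 kb of each other's loci. Zic2 (log2 fold change 0.51, FDR = 0.0934) and Zic5 (0.71, FDR = 0.161) had positive fold changes but missed the threshold.

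The Onecut and Zfhx homeobox genes, expressed in subcortical and early born neurons, had 3 of the 5 members tested upregulated (6 were listed), and all 5 had an unadjusted p below 0.05 (median log2 fold change 0.81). Of all tested genes 0.319% were upregulated, and 5.69% were higher and 4.77% lower at that unadjusted p. Onecut2 was at 14.3, 7.59 and 10.2 CPM in Phf6+/Y libraries 1 to 3 and at 38.5, 15.9, 14.7, 15.49 and 15.6 CPM in Phf6-/Y libraries 1 to 5. All Phf6-/Y libraries exceeded all controls, and library 1 was far above the rest (log2 fold change 0.98 ± 0.14, FDR = 0.011). Onecut3 measured 3.59, 0.796 and 0.507 CPM in the 3 Phf6+/Y libraries and 9.92, 1.88, 2.21, 1.25 and 1.66 CPM in the 5 Phf6-/Y libraries. Onecut3 was low in both genotypes and overlapped between them (log2 fold change 1.44 ± 0.28, FDR = 0.041). For Zfhx3, the levels were 42.9, 29.0 and 26.8 CPM in Phf6+/Y and 95.4, 43.8, 46.0, 52.5 and 35.9 CPM in Phf6-/Y. Here too library 1 was highest and the control of litter 3 lay within the Phf6-/Y range (log2 fold change 0.81 ± 0.13, FDR = 0.0368). Zfhx4 (0.48, FDR = 0.0934) and Zfhx2 (0.54, FDR = 0.14) did not pass the threshold. Without Phf6-/Y library 1 none of these genes was called, and the values were 0.81 for Onecut2 (FDR = 0.0627), 1.43 for Onecut3 (FDR = 0.295) and 0.68 for Zfhx3 (FDR = 0.0922).

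LIM and other homeobox genes were upregulated too. Lhx5 was at 14.6, 7.84 and 6.63 CPM in Phf6+/Y libraries 1 to 3 and at 28.6, 14.3, 13.1, 11.2 and 8.45 CPM in Phf6-/Y libraries 1 to 5. Lhx5, a marker of Cajal-Retzius neurons and the hypothalamus, was highest in library 1, and 4 Phf6-/Y libraries lay below the control of litter 3 (log2 fold change 0.77 ± 0.14, FDR = 0.0368). Lhx8 measured 23.9, 11.0 and 10.9 CPM in the 3 Phf6+/Y libraries and 28.2, 21.99, 21.98, 23.4 and 19.6 CPM in the 5 Phf6-/Y libraries. Lhx8, which specifies cholinergic neurons of the ventral forebrain, was about equal in the 5 Phf6-/Y libraries, and only its litter 3 control came up to that level (log2 fold change 0.77 ± 0.14, FDR = 0.0393). For Dbx1, the levels were 0.956, 0 and 0.127 CPM in Phf6+/Y and 13.4, 0.901, 0.419, 0.789 and 0.525 CPM in Phf6-/Y. Dbx1 is a homeobox gene of pallial border progenitors that give rise to Cajal-Retzius neurons, and was listed here among the diencephalic and hindbrain markers. It was close to zero in all libraries except Phf6-/Y library 1, where it reached 13.4 CPM (log2 fold change 3.63 ± 0.54, FDR = 0.0136). Without that library neither Dbx1 (log2 fold change 3.33, FDR = 0.279) nor Lhx5 (log2 fold change 0.69, FDR = 0.209) was called.

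Pou2f2 (POU domain), Foxp2 (a forkhead factor of deep layer and striatal neurons), Pbx3 (a homeobox factor), Fgf15 (a growth factor of the forebrain midline) and Lin28b (an RNA-binding protein that blocks let-7 microRNA maturation) completed the group. Lin28b was at 8.34, 5.16 and 4.56 CPM in Phf6+/Y libraries 1 to 3 and at 17.9, 13.2, 8.00, 10.7 and 10.3 CPM in Phf6-/Y libraries 1 to 5. Only Phf6-/Y library 3 lay below a control, the one of litter 3 (log2 fold change 1.11 ± 0.18, FDR = 0.0227). Foxp2 measured 48.9, 39.1 and 48.1 CPM in the 3 Phf6+/Y libraries and 71.2, 57.2, 53.5, 62.3 and 56.2 CPM in the 5 Phf6-/Y libraries. All Phf6-/Y libraries were above all controls (log2 fold change 0.44 ± 0.080, FDR = 0.0368). For Fgf15, the levels were 29.1, 11.99 and 13.1 CPM in Phf6+/Y and 44.4, 19.9, 24.3, 20.1 and 16.3 CPM in Phf6-/Y. For Fgf15 the control of litter 3 exceeded 4 of the Phf6-/Y libraries, so that the call rests on differences within litters (log2 fold change 0.66 ± 0.12, FDR = 0.0375). Pou2f2 rose by a log2 fold change of 0.82 (FDR = 0.0227) and Pbx3 by 0.39 (FDR = 0.0393). Pou2f2 and Fgf15 were not called without Phf6-/Y library 1, with log2 fold changes of 0.65 (FDR = 0.0897) and 0.69 (FDR = 0.106). The plot of levels by litter shows the steps between litters beside the steps between genotypes.

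**Figure D3:**
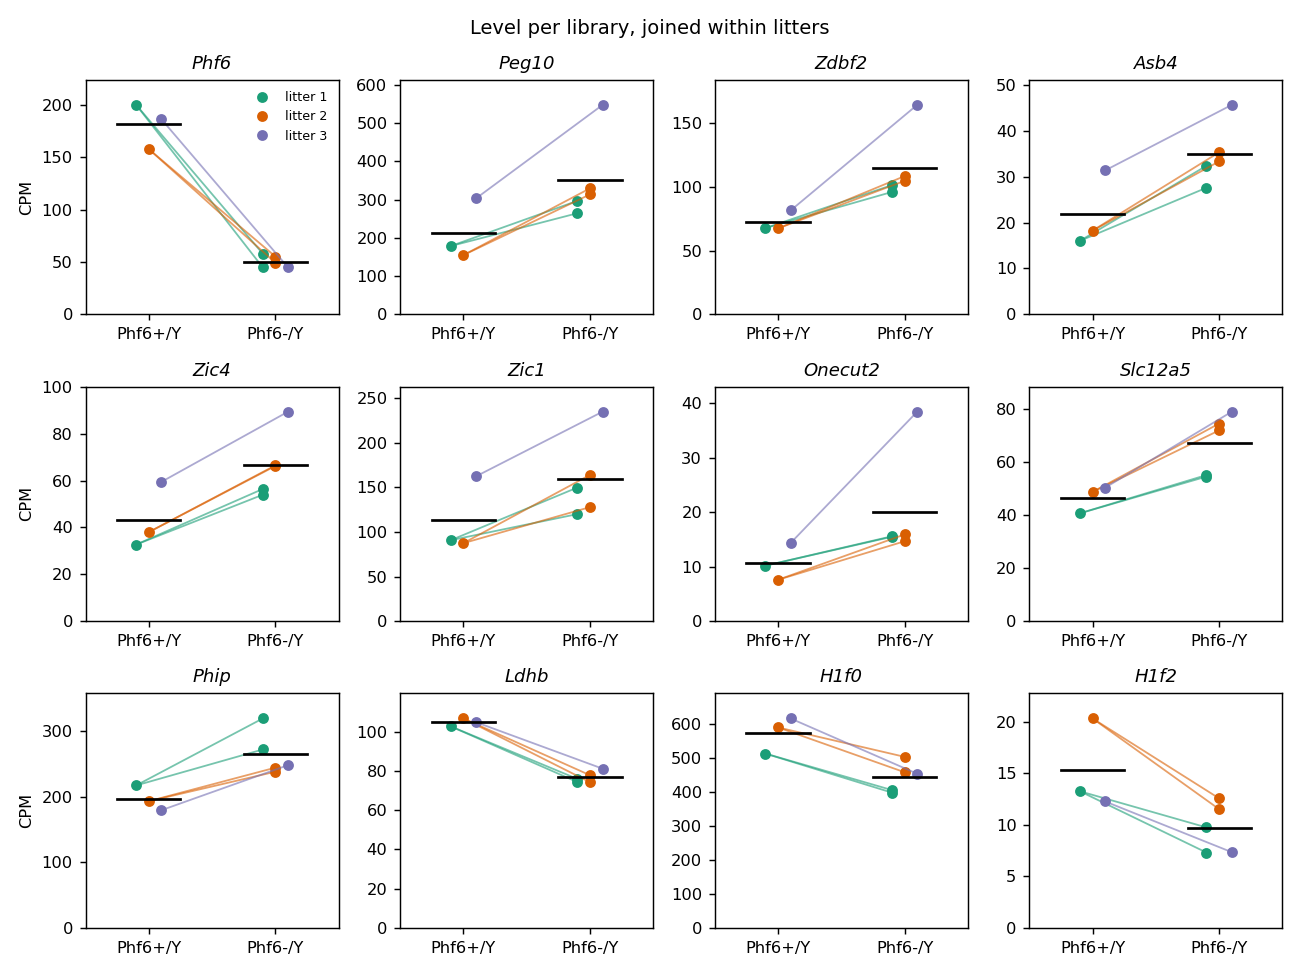
Level (CPM) of 12 called genes in each cortex library by genotype. Colours mark litters, thin lines join each control to its Phf6-/Y littermates and black bars are group means. In each litter the Phf6-/Y points of the upregulated genes lie above their littermate control, and litter 3 is the highest in several of them, as for Peg10 (303 CPM in its control and 548 CPM in its Phf6-/Y library).

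The second large grouping comprised 11 upregulated genes of membrane excitability, synapse and secretion (log2 fold changes 0.43 to 1.24). Slc12a5 was at 50.4, 48.7 and 40.7 CPM in Phf6+/Y libraries 1 to 3 and at 79.0, 72.0, 74.5, 54.5 and 55.1 CPM in Phf6-/Y libraries 1 to 5. Slc12a5 encodes KCC2, the neuronal potassium-chloride exporter that keeps intracellular chloride low, and its levels did not overlap between genotypes (log2 fold change 0.55 ± 0.074, FDR = 0.00732). Asic4 measured 8.38, 3.52 and 2.75 CPM in the 3 Phf6+/Y libraries and 25.7, 8.82, 8.53, 5.95 and 3.72 CPM in the 5 Phf6-/Y libraries. Asic4, of the acid-sensing ion channel family, was highest in library 1, and Phf6-/Y libraries 4 and 5 lay below the control of litter 3 (log2 fold change 1.24 ± 0.20, FDR = 0.0227). For Dnm3, the levels were 60.5, 67.9 and 66.2 CPM in Phf6+/Y and 75.4, 97.2, 103, 85.1 and 99.3 CPM in Phf6-/Y. Dnm3, a neuronal dynamin of membrane fission, was higher in all Phf6-/Y libraries than in any control, and library 1 was the lowest of them (log2 fold change 0.46 ± 0.078, FDR = 0.0256).

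Gng4 was at 24.7, 26.4 and 21.8 CPM in Phf6+/Y libraries 1 to 3 and at 33.3, 40.4, 44.7, 30.3 and 37.5 CPM in Phf6-/Y libraries 1 to 5. For Gng4, a G protein gamma subunit, no overlap was seen (log2 fold change 0.60 ± 0.10, FDR = 0.0272). Lin7a measured 20.7, 18.5 and 21.3 CPM in the 3 Phf6+/Y libraries and 34.6, 27.5, 29.5, 25.6 and 33.2 CPM in the 5 Phf6-/Y libraries. Lin7a, a scaffold protein of synaptic and junctional membranes, was likewise separated between genotypes (log2 fold change 0.60 ± 0.11, FDR = 0.0368). Sorcs3, a sorting receptor, also had its lowest Phf6-/Y library above its highest control (log2 fold change 0.65 ± 0.11, FDR = 0.0272). Ptprn, a protein of dense-core vesicles (log2 fold change 0.66 ± 0.12, FDR = 0.0368), and Iqsec3, an exchange factor of inhibitory synapses (log2 fold change 0.43 ± 0.083, FDR = 0.041), overlapped with the controls. Ptprn was not called without Phf6-/Y library 1 (log2 fold change 0.52, FDR = 0.224). An overlap was also seen for Ecel1, a neuronal endopeptidase (log2 fold change 0.63 ± 0.10, FDR = 0.0227), and Kndc1 (log2 fold change 0.48 ± 0.091, FDR = 0.0393).

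For Calb2, the levels were 15.501, 19.4 and 12.9 CPM in Phf6+/Y and 25.1, 25.0, 27.0, 18.3 and 20.8 CPM in Phf6-/Y. Calb2 encodes calretinin, a calcium-binding protein of Cajal-Retzius neurons and some interneurons, and Phf6-/Y library 4 lay below the highest control (log2 fold change 0.56 ± 0.11, FDR = 0.0393). Among 14 Cajal-Retzius markers, Calb2 and Lhx5 were called, 13 had a positive fold change and the median log2 fold change was 0.298. Over all tested genes 49.4% had a positive fold change and the median was -0.002. The summed level of the 14 markers was 610 to 702 CPM in Phf6+/Y and 760 to 882 CPM in Phf6-/Y libraries, which do not overlap. The highest sum was that of Phf6-/Y library 1. Reln was at 243, 241 and 270.1 CPM in Phf6+/Y libraries 1 to 3 and at 195, 316, 322, 357 and 372 CPM in Phf6-/Y libraries 1 to 5. Reln, the signal secreted by these neurons, was lower in Phf6-/Y library 1 than in all controls and higher in the other Phf6-/Y libraries than in all controls (log2 fold change 0.22, FDR = 0.603). Without library 1 Reln was called (0.42, FDR = 0.0398). In that fit 12 of the 14 markers had a positive fold change and their median was 0.248. The 2 called were then Reln and Cacna2d2, in place of Calb2 (FDR = 0.191) and Lhx5 (FDR = 0.209). Of 15 cortical hem and roof genes tested of 16 listed, 4 had a positive fold change, none was called and the median was -0.095. Without library 1, 14 were tested and their median was -0.2545. In that fit 3 were lower and none higher at an unadjusted p below 0.05, against 3.1% and 5.3% of all tested genes.

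Of 35 ion channel genes tested of 36 listed, 12 were higher and none lower at an unadjusted p below 0.05, with Asic4 alone past the FDR. Their median log2 fold change was 0.155, against -0.002 for all tested genes. At that p 5.69% of all tested genes were higher and 4.77% lower. Cacna2d2 measured 84.2, 70.2 and 54.4 CPM in the 3 Phf6+/Y libraries and 91.2, 98.8, 101, 87.7 and 82.9 CPM in the 5 Phf6-/Y libraries. Cacna2d2, a calcium channel auxiliary subunit, fell just short of the threshold (log2 fold change 0.45, FDR = 0.0505), with Phf6-/Y library 5 below the control of litter 3. Without Phf6-/Y library 1, Cacna2d2 was called (log2 fold change 0.59, FDR = 0.00718) and Asic4 was not (log2 fold change 1.07, FDR = 0.167). Cacna1e (0.34, FDR = 0.127) and Scn3b (0.26, FDR = 0.203) did not pass it. In the list of cation-chloride transporters Slc12a5 was the only one called of 7 tested, and 2 others were lower at an unadjusted p below 0.05.

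Cytoskeletal genes were represented by 4 upregulated members. For Syne1, the levels were 14.8, 17.7 and 14.4 CPM in Phf6+/Y and 24.6, 25.0, 22.8, 24.8 and 25.0 CPM in Phf6-/Y. Syne1 encodes nesprin-1, which links the nuclear envelope to the cytoskeleton, and its 5 Phf6-/Y libraries were close to each other and above all controls (log2 fold change 0.64 ± 0.11, FDR = 0.0256). Nefl was at 42.6, 43.7 and 37.0 CPM in Phf6+/Y libraries 1 to 3 and at 81.6, 57.8, 57.3, 49.1 and 44.5 CPM in Phf6-/Y libraries 1 to 5. Nefl, the light neurofilament subunit, was highest in library 1 and passed narrowly (log2 fold change 0.52 ± 0.10, FDR = 0.0498), but not without that library (log2 fold change 0.38, FDR = 0.199). Map7d2 (log2 fold change 0.61 ± 0.11, FDR = 0.0375) and Eml6 (log2 fold change 0.63 ± 0.12, FDR = 0.041), which encode microtubule-associated proteins, had no Phf6-/Y library within the control range.

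Axon guidance, receptor and matrix genes included 5 upregulated members and 1 downregulated member. Plxnc1 measured 114, 109 and 109 CPM in the 3 Phf6+/Y libraries and 149, 143, 152, 143 and 138 CPM in the 5 Phf6-/Y libraries. Plxnc1, the receptor of semaphorin 7A, had narrow and separate ranges in the genotypes (log2 fold change 0.40 ± 0.064, FDR = 0.0227). For Vcan, the levels were 268, 268 and 307 CPM in Phf6+/Y and 351, 362, 330.4, 382 and 445 CPM in Phf6-/Y. Vcan encodes versican, a chondroitin sulphate proteoglycan of the extracellular matrix, and was above all controls in each Phf6-/Y library (log2 fold change 0.39 ± 0.069, FDR = 0.0316). Col25a1 was at 7.42, 7.25 and 6.76 CPM in Phf6+/Y libraries 1 to 3 and at 16.91, 13.1, 11.0, 10.2 and 10.2 CPM in Phf6-/Y libraries 1 to 5. Col25a1, a transmembrane collagen of neurons, also had no overlap (log2 fold change 0.81 ± 0.15, FDR = 0.0381).

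Ccbe1 measured 7.22, 16.89 and 16.85 CPM in the 3 Phf6+/Y libraries and 3.98, 10.9, 9.14, 9.90 and 10.6 CPM in the 5 Phf6-/Y libraries. Ccbe1, a secreted matrix protein known from lymphatic growth, was lower in Phf6-/Y within each litter, although the control of litter 3 was at 7.22 CPM, below 4 Phf6-/Y libraries (log2 fold change -0.76 ± 0.13, FDR = 0.0273). Without Phf6-/Y library 1 its log2 fold change was -0.73 (FDR = 0.085). Efna5, a membrane-tethered ligand of Eph receptors (log2 fold change 0.59 ± 0.11, FDR = 0.0393), and Gfra2, the neurturin co-receptor (log2 fold change 0.75 ± 0.14, FDR = 0.041), were upregulated. In the lists behind these genes, 1 of 22 Eph receptor and ephrin genes and 1 of 36 semaphorin, plexin, slit, Robo and netrin genes were called, and the median log2 fold changes were 0.003 and 0.048. Efnb3 had a log2 fold change of 0.35 (FDR = 0.0743).

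For Phip, the levels were 179, 193 and 217 CPM in Phf6+/Y and 248, 238, 244, 272 and 319 CPM in Phf6-/Y. Phip, a bromodomain and WD repeat protein, was above all controls in every Phf6-/Y library (log2 fold change 0.41 ± 0.070, FDR = 0.029). The 3 BRWD genes summed to 388 to 425 CPM in Phf6+/Y and 450 to 551 CPM in Phf6-/Y libraries, with Phip called and Brwd3 at a log2 fold change of 0.21 (FDR = 0.393). AW551984 was at 54.7, 39.6 and 30.9 CPM in Phf6+/Y libraries 1 to 3 and at 98.1, 72.0, 69.7, 50.4 and 46.4 CPM in Phf6-/Y libraries 1 to 5. AW551984, a gene without an established function, had the lowest p after Phf6 and Peg10 (log2 fold change 0.77 ± 0.077, FDR = 0.000618). Zcchc12 measured 109.9, 107 and 86.8 CPM in the 3 Phf6+/Y libraries and 174, 148, 146, 109 and 118 CPM in the 5 Phf6-/Y libraries. Zcchc12, an X-linked zinc finger gene, had Phf6-/Y library 4 just below the control of litter 3 (log2 fold change 0.49 ± 0.070, FDR = 0.011). The other upregulated genes were Tmem255a, Tmem130, Ccdc184, Csrnp3 and Pgap1, an enzyme that remodels GPI anchors, with log2 fold changes of 1.00, 0.52, 0.57, 0.35 and 0.38.

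The 9 downregulated genes other than Phf6 included 2 linker histones, the proteins that bind the nucleosome at the entry of DNA and compact chromatin. For H1f0, the levels were 617, 591 and 514 CPM in Phf6+/Y and 454, 459, 504, 406 and 398 CPM in Phf6-/Y. H1f0, the replacement linker histone of cells that leave the cycle, was lower in all Phf6-/Y libraries than in any control (log2 fold change -0.36 ± 0.063, FDR = 0.0316). H1f2 was at 12.3, 20.3 and 13.3 CPM in Phf6+/Y libraries 1 to 3 and at 7.35, 11.5, 12.6, 9.75 and 7.31 CPM in Phf6-/Y libraries 1 to 5. H1f2, a replication-dependent linker histone, was lower in Phf6-/Y within each litter, with Phf6-/Y library 3 just above the control of litter 3 (log2 fold change -0.71 ± 0.13, FDR = 0.0393). Replication-dependent histone transcripts mostly lack a poly(A) tail, and these libraries were labelled as poly(A) RNA, so few of them are recorded. Over the 6 linker histones tested of 7 listed the sum was 742 to 928 CPM in Phf6+/Y and 575 to 766 CPM in Phf6-/Y libraries. The family did not move as a whole, since H1f10 had a log2 fold change of -0.24 (FDR = 0.324), H1f3 one of 1.75 (FDR = 0.392) at levels under 2 CPM, and the median was -0.073.

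The 250 bases upstream of the annotated starts of the 2 linker histone genes (RefSeq, GRCm38.p6) are shown because both genes fell. Capitals mark AAACACA, the element named for H1 histone promoters, and CCAAT, the box bound by NF-Y, each searched on both strands. The stretch of H1f2 is chr13:23738557-23738806 and that of H1f0 is chr15:79027962-79028211, both on the plus strand.
H1f2: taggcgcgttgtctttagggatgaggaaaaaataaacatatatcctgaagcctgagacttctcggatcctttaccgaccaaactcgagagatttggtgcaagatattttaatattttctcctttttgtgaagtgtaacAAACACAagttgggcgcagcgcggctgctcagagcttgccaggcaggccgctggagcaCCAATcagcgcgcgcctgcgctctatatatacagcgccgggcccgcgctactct
H1f0: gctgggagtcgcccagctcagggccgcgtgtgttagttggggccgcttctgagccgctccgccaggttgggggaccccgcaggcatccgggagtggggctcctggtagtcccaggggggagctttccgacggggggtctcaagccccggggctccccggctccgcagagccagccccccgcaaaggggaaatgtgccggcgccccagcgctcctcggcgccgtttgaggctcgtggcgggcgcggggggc
In H1f2 AAACACA begins 112 and CCAAT 54 bases upstream of the start, while neither motif is present in the H1f0 stretch. Over 11700 promoters of tested genes, in windows of this length, AAACACA was present in 3.85% and CCAAT in 36.2%. The stretch of H1f2 has 50.4% GC and that of H1f0 74.4%.

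Enzymes and carriers of metabolism gave 3 downregulated genes. Ldhb measured 105, 107 and 103 CPM in the 3 Phf6+/Y libraries and 81.1, 74.3, 77.8, 75.9 and 74.3 CPM in the 5 Phf6-/Y libraries. Ldhb, the lactate dehydrogenase subunit that favours pyruvate formation, was tightly grouped within each genotype and did not overlap (log2 fold change -0.44 ± 0.064, FDR = 0.011). For Spr, the levels were 23.9, 27.3 and 23.6 CPM in Phf6+/Y and 16.6, 16.4, 19.5, 17.4 and 17.1 CPM in Phf6-/Y. Spr encodes sepiapterin reductase of tetrahydrobiopterin synthesis, and all Phf6-/Y libraries were below all controls (log2 fold change -0.53 ± 0.10, FDR = 0.041). Dbi was at 168, 184 and 190.1 CPM in Phf6+/Y libraries 1 to 3 and at 127, 153, 153, 145 and 159 CPM in Phf6-/Y libraries 1 to 5. Dbi, the acyl-CoA-binding protein abundant in radial glia, was also separated (log2 fold change -0.32 ± 0.064, FDR = 0.0498). Of 21 glycolysis genes Ldhb was the only one called, 4 were lower and 1 higher at an unadjusted p below 0.05, and the median log2 fold change was -0.058. Of all tested genes 4.77% were lower and 5.69% higher at that p. Aldoc (-0.48, FDR = 0.0842) and Pkm (-0.24, FDR = 0.162) had negative fold changes but missed the threshold.

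The downregulated genes Ttc7 and 4833418N02Rik overlap on chromosome 17 and are the only called genes of 12 tested within 500 kb. Ttc7 measured 9.86, 7.75 and 6.00 CPM in the 3 Phf6+/Y libraries and 2.79, 2.70, 3.31, 4.19 and 2.98 CPM in the 5 Phf6-/Y libraries. For 4833418N02Rik, the levels were 6.86, 10.3 and 5.19 CPM in Phf6+/Y and 2.79, 3.45, 2.63, 3.08 and 2.10 CPM in Phf6-/Y. In both, each Phf6-/Y library was below every control, and the log2 fold changes were -1.27 ± 0.23 (FDR = 0.0368) and -1.37 ± 0.22 (FDR = 0.0227). The strand setting of the counting was not stated, so reads of one may have been counted for the other, and the 2 calls are not independent. Necab3 was at 23.5, 23.9 and 20.5 CPM in Phf6+/Y libraries 1 to 3 and at 14.5, 15.2, 16.8, 12.6 and 15.8 CPM in Phf6-/Y libraries 1 to 5. Necab3, a calcium-binding protein, was the remaining downregulated gene and did not overlap between genotypes (log2 fold change -0.60 ± 0.11, FDR = 0.0375). Elsewhere in the genome, the called genes Ptprn and Asic4 lie 186013 bases apart on chromosome 1, and both were upregulated among 28 and 24 genes tested around them.

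The partner complexes of PHF6 were examined as lists of genes. None of 15 NuRD subunits, 6 PAF1 complex subunits, 18 RNA polymerase I genes or 27 genes of the SWI/SNF and ISWI remodelling complexes was called. Since 0.319% of all tested genes were upregulated and 0.0678% downregulated, the lack of calls in such short lists says little about them. Among the NuRD genes 14 of 15 had a negative fold change (median -0.092), with Mta3 at -0.31 (FDR = 0.28) and Mbd3 at -0.20 (FDR = 0.324). The 18 RNA polymerase I genes had a median of -0.077. None of 74 ribosomal protein genes was called, 14 were lower and none higher at an unadjusted p below 0.05, and the median was -0.117. Their summed level was 7496 to 7525 CPM in Phf6+/Y and 6542 to 7166 CPM in Phf6-/Y libraries, with no overlap. Of all tested genes 4.77% were lower and 5.69% higher at that p, and the median was -0.002.

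Markers of the stages of the cortical lineage were set beside all tested genes, of which 0.319% were upregulated and 0.0678% downregulated. At these shares a list of this size without a call says little about its members. At an unadjusted p below 0.05, 5.69% of all tested genes were higher and 4.77% lower. Of 22 radial glial and Notch genes 1 was downregulated, and 1 was higher and 5 were lower at an unadjusted p below 0.05 (median -0.064), and Vim had a log2 fold change of -0.23 (FDR = 0.233). None of 29 cell cycle genes was called, with 3 higher and 7 lower at an unadjusted p below 0.05. Mki67, a marker of cycling cells, was at 0.20 (FDR = 0.269) and Mcm7, a replication helicase subunit, at -0.20 (FDR = 0.233). None of 13 intermediate progenitor markers was called. Among 27 genes of postmitotic neurons 2 were upregulated and 7 were higher at an unadjusted p below 0.05, with a median of 0.078.

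Pyramidal lineage markers had a median log2 fold change of -0.206, with 11 of 12 negative and none called, and Neurod6 was at 520 to 664 CPM in controls, 295 CPM in Phf6-/Y library 1 and 511 to 613 CPM in the other Phf6-/Y libraries. Without that library the median was -0.023. The median of the 14 diencephalic and hindbrain markers was 1.19 with the library and 0.507 without it, and the number with a positive fold change went from 14 to 10. Of those, 2 were called with the library and none without it. Of 25 markers of the ganglionic eminences and interneurons 2 were upregulated (median 0.019), and of 18 striatal markers 3 were upregulated (median 0.113).

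None of the choroid plexus (12), endothelial (17), microglial (16), erythroid (8), meningeal (14) and oligodendrocyte or astrocyte (12) markers tested was called. Of 12 interferon response genes and 13 p53 targets tested, none was called either. The shares over all tested genes were 0.319% upregulated and 0.0678% downregulated, so nothing is read from the lack of calls in these lists. Beyond leaving out Phf6-/Y library 1, the part of these markers in the upregulated patterning genes was not tested.

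Litter was a second source of variation in the called genes. The litter terms were significant at FDR < 0.05 for 251 of 14750 genes (1.70%), but for 23 of the 47 upregulated genes (48.9%), each of them with a higher level in litter 3 than in litter 1. Litter 3 was above litter 1 in 40 of the 47 (85.1%), compared with 48.3% of all tested genes. Of the 10 downregulated genes 1 had a significant litter term. The gap between littermate Phf6-/Y libraries had a median of 0.151 in log2 CPM for the called genes and 0.160 for all genes, whereas the difference between genotypes within litters had medians of 0.612 and 0.175. The called genes were chosen by that difference relative to the spread between libraries, so nothing is read from this contrast. Litter 3 is the litter of Phf6-/Y library 1. The control of that litter was the highest of the 3 controls for Peg10, Zic1, Zic4, Lhx5, Lhx8 and Asic4.

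**Figure D4:**
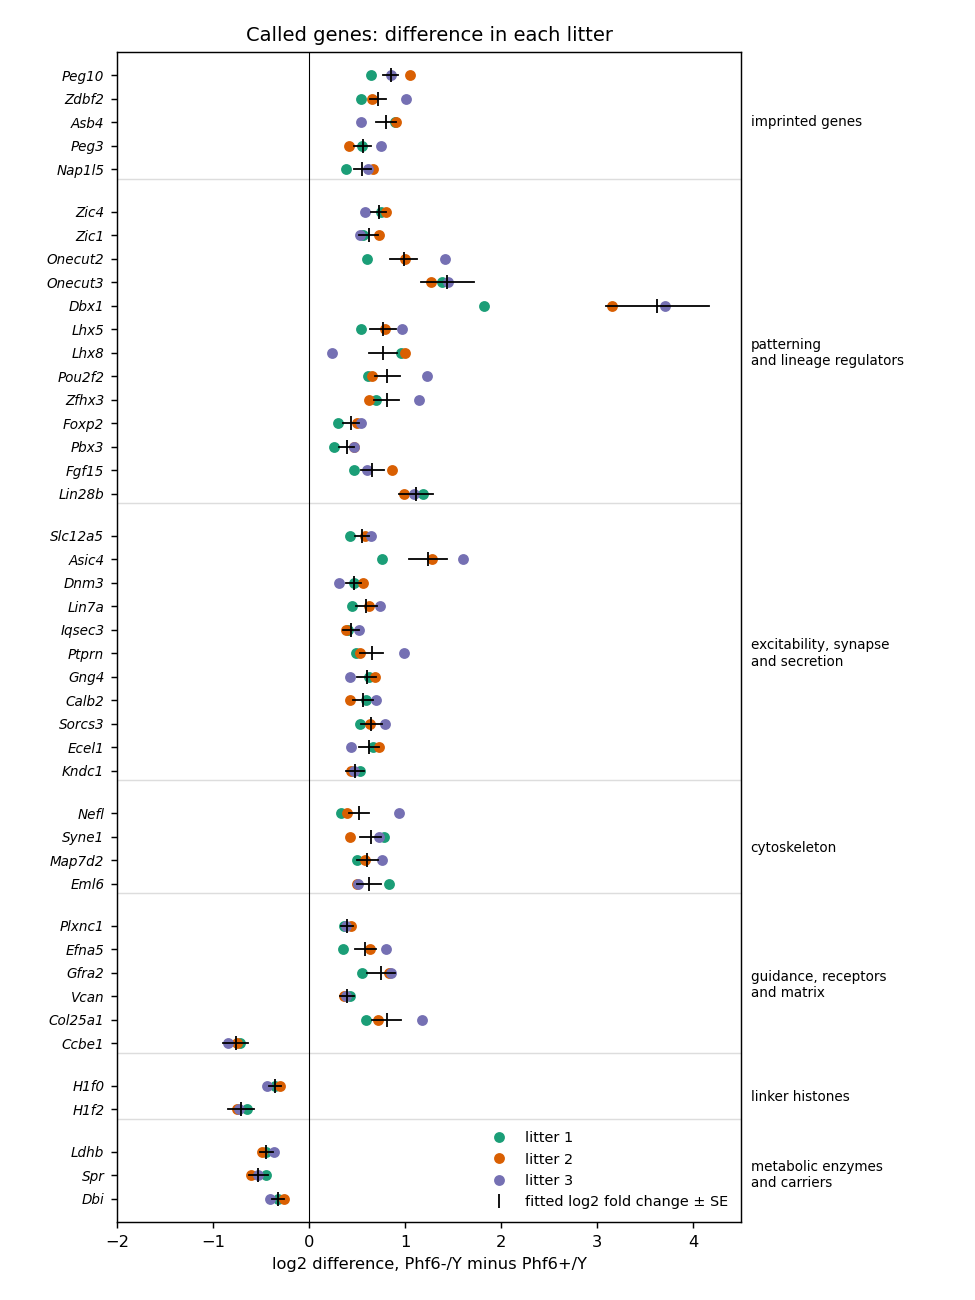
Difference in level (log2 CPM, Phf6-/Y minus Phf6+/Y) within each of the 3 litters for 44 called genes in 7 functional groups, with the fitted log2 fold change and its standard error. All points of upregulated genes lie right of zero and all points of downregulated genes left of it, and the litter 3 point of Dbx1 exceeds the others.

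The called genes were then compared with the same genes in cultured neurons lacking Phf6. In the neurons, Phf6lox/Y;Nes-creTg/+ library 1 was alone in litter 7, without a control. With litter in the model that library added nothing to the genotype effect, which rested on litters 4, 5 and 6. Without Phf6 itself, 38 of 56 genes had the same sign in neurons, against 57.1% of all genes tested in both. Of the 56, 22 also had an unadjusted p below 0.05 in the neurons (5.91% of all genes) and 4 passed FDR < 0.05 there (0.197% of all genes). These were Peg10 (log2 fold change 0.56 in neurons), Zdbf2 (0.62), Phip (0.52) and Ldhb (-0.40). All 9 downregulated genes had the same sign, 7 of them with an unadjusted p below 0.05, and 29 of the 47 upregulated genes did, 15 of them with an unadjusted p below 0.05. In 3 of the 47, Lhx8 (-1.53), Fgf15 (-1.10) and Pbx3 (-0.45), the neurons differed in the opposite direction at an unadjusted p below 0.05, as did 2.19% of all genes. In the neurons Lhx8 was at 2.07 ± 3.00 CPM in controls and 0.943 ± 0.999 CPM after deletion (mean ± SD). Fgf15 was at 2.82 ± 3.12 and 2.52 ± 2.86 CPM, so both were near the floor. The median log2 fold change of the 47 was 0.63 in cortex but 0.097 in neurons. The 47 were chosen by their effect in the cortex, which raises the cortex median, so nothing is read from this gap. The cultures differed from the cortex in stage, in the Cre used and in kind of sample, and these cannot be told apart.

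A difference between the cortex and neuron effects passed FDR < 0.05 for 2 of 15001 genes (0.0133%). One was Lhx8, with an interaction of 2.31 ± 0.35 (FDR = 0.0336), a log2 fold change of -1.53 in neurons and 0.77 in the cortex. Its neuron value rests on means of 2.07 CPM in controls and 0.943 CPM after deletion. The other was Sst, the interneuron peptide somatostatin (interaction -1.17, FDR = 0.0236), which was not called in the cortex. An unadjusted p below 0.05 for the interaction was found for 779 of all genes (5.19%) and for 31 of the 57 called genes, which were chosen by the cortex effect that enters this difference, so nothing is read from their share. Onecut2 came next to the threshold (FDR = 0.0537).

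**Figure D5:**
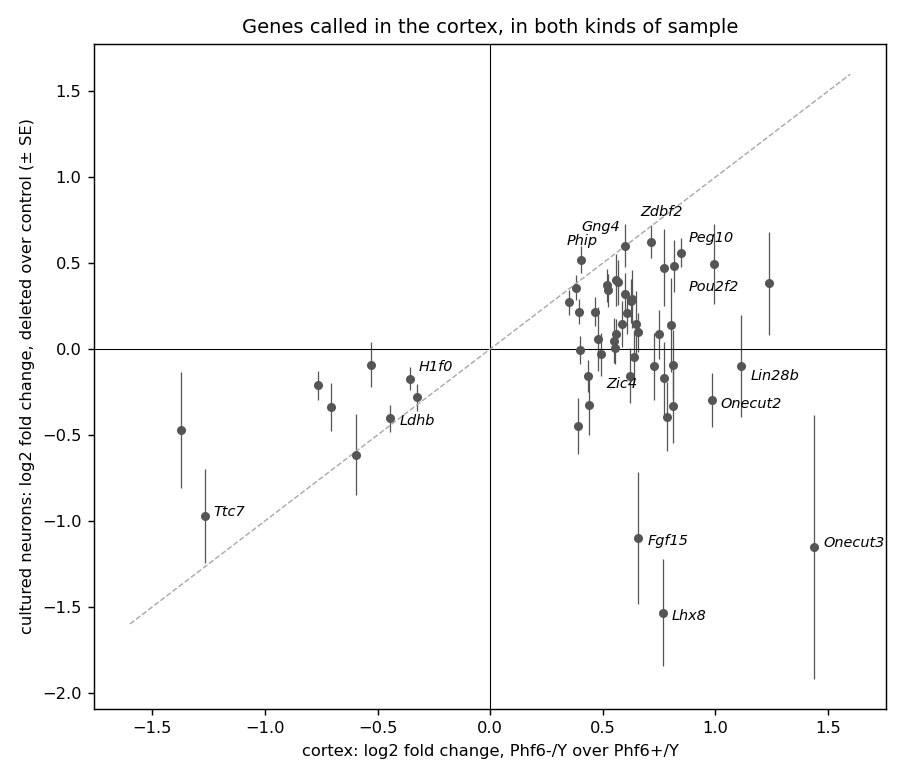
Log2 fold change in cultured neurons (Phf6lox/Y;Nes-creTg/+ over Phf6+/Y;Nes-creTg/+, vertical axis, ± standard error) against that in the cortex (horizontal axis) for the called genes other than Phf6 and Dbx1; the dashed line marks equal change. The downregulated genes lie in the lower left, Peg10 and Zdbf2 lie near 0.6 in neurons, and Lhx8 lies at -1.53.

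Features that did not enter the model were compared as descriptions. The 47 upregulated genes spanned a median of 49.64 kb and the 10 downregulated genes 11.47 kb, against 24.11 kb for all tested genes. The GC content of the transcripts had medians of 47.94% for the upregulated, 52.53% for the downregulated and 49.92% for all genes. Over the window from 250 bases before to 50 bases after the start, CpG counts had a median of 15 in the 35 upregulated genes with a promoter sequence and 23.5 in the 8 downregulated ones, against 20 in 11700 promoters.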

How the data were processed

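RNA from dissected E15.5 cortex, labelled as poly(A) RNA, was made into stranded libraries and sequenced. The authors aligned reads to mm10 and deposited raw counts per Entrez gene made with featureCounts (named in the submitters' processing notes), with no normalization. The strand setting is not given in the sources used here. Of 26150 identifiers, 875 unmatched ones, 835 pseudogenes, 35 ribosomal RNA genes and 1273 predicted genes were removed, and 1029 unnamed entries (0.349 to 0.524% of counts) were left out. Genes were filtered with filterByExpr, scaled by TMM and tested with edgeR 4.0.16 (robust quasi-likelihood F test, R 4.3.3), in a model of litter and genotype, with p-values adjusted by the Benjamini-Hochberg method. The litter of each library was taken from the sample labels, and the study's own models also corrected for litter. DESeq2 1.42.0 and limma 3.58.1 were alternatives. Every gene with FDR < 0.05 could be named, with up to 4 members of each list and the neighbours of called loci within 500 kb. The members and lists were chosen with earlier results of these data known, and the functional groups of called genes and the fits of lists without Phf6-/Y library 1 were set after the values were seen. The scripts were tested on simulated data. Per the study's descriptions each library is from 1 foetus. Total counts per library set the precision, and genes at few CPM are less certain. A few single genes are not reported here.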

Additional observations from a re-analysis of the deposited data

Results flagged for a closer look

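Of the called genes, 56 were checked for a Phf6-/Y library far from the other 4, by the gap to its neighbour relative to the range. Chance meets this check in about 1 in 20 groups drawn from 1 normal distribution, but these CPM came from several litters. It was met by 12 genes (21.4%), 11 of them in Phf6-/Y library 1, and was not run over all tested genes. Phf6-/Y library 1 is the only Phf6-/Y library of litter 3, so within the Phf6-/Y group library and litter cannot be told apart. That library was high for Peg10 (548 CPM), Zdbf2 (164 CPM), Onecut2 (38.5 CPM), Dbx1 (13.4 CPM), Asic4 (25.7 CPM), Pou2f2 (50.1 CPM), Zfhx3 (95.4 CPM), Lhx5 (28.6 CPM), Fgf15 (44.4 CPM) and Onecut3 (9.92 CPM), and low for Ccbe1 (3.98 CPM). The control of litter 3 was at 303 CPM for Peg10, 14.3 CPM for Onecut2 and 0.956 CPM for Dbx1. Syne1 was low in Phf6-/Y library 3 (22.8 CPM), although it was above all controls there.

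Among 15 marker lists, 6 sums met the same check. In Phf6-/Y library 1 they were the pyramidal lineage (2219 CPM), radial glia and Notch (3992 CPM), striatal (1022 CPM) and diencephalic and hindbrain genes (586 CPM). In Phf6-/Y library 4 they were the choroid plexus (415 CPM) and meningeal markers (686 CPM).

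The genotype effect differed between the cortex and the cultured neurons for 2 genes, by a test of the interaction. The difference, cortex minus neurons on the log2 scale, was -1.17 for Sst and 2.31 for Lhx8. Lhx8 was at few CPM in the neurons.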

How the results depend on the processing

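Without any single library the count of upregulated genes ranged from 6 to 68 and that of downregulated genes from 1 to 13, and the number of genes with different effects in cortex and neurons ranged from 0 to 4. The lowest count of upregulated genes (6) came without Phf6+/Y library 2, and 8, 12, 15 and 9 were called without Phf6+/Y library 1, Phf6+/Y library 3, Phf6-/Y library 1 and Phf6-/Y library 2. DESeq2 called 153 upregulated and 42 downregulated genes, and without a low-count filter 95 and 19 were called. An offset for GC content and length gave 66 and 21, but 7 of the 55 single genes checked lost their call. With litter left out, 0 genes were upregulated and 1, Phf6, was downregulated, while limma-trend, other scalings, a filter at 1 CPM and keeping every identifier gave 46 to 57 upregulated and 9 or 10 downregulated genes. The replicate block, with the number in place of litter, gave 70 upregulated and 5 downregulated genes, and 14 of the 55 single genes lost their call. Deviations from the group mean had correlations of 0.218, -0.00128 and -0.24 between same-numbered libraries of the 2 genotypes. Between libraries of the same litter they were 0.218, -0.00128, 0.0892, 0.461 and -0.162. Neither set was positive throughout, so this check does not decide between the blocks. The litters were taken from the sample labels. The causes of these shifts were not tested.

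Phf6 was called in every setting, with log2 fold changes of -2.001 to -1.78. Of 55 single genes 0 changed sign in the settings that tested them (all 18 for 54 genes, and 17 for Dbx1, which the filter at 1 CPM removed), 55 were called by DESeq2 and limma, 11 without Phf6-/Y library 1 and 4 whichever library was left out. Of 38 further named genes that did not pass the threshold, 0 changed sign where they were tested (in 13 settings for H1f3 and in all 18 for the other 37). Across the settings the log2 fold changes of Phip, Vcan, Pgap1 and Csrnp3 were as low as 0.21, 0.20, 0.19 and 0.18. They were called in 10, 10, 9 and 8 of 18 settings, and Dbi in 6. With 1 control per litter, leaving out 1 library of litter 3 leaves the other with no partner in the litter. Low counts limit Dbx1, Onecut3, Rtl1 and H1f3, whose levels were under 2 CPM in several libraries. Low counts also limit Lhx8 and Fgf15 in the neurons.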
